A study of Mus musculus with 4 samples.

Results

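The genes described here are 47 mouse genes of interferon signalling and of the response to it, taken as a named list of receptors, transcription factors and interferon-induced genes. Of the 47, 40 had a transcript cluster of their own among the 19938 genes measured in skin, a transcript cluster being a set of probes along the exons of a gene. Oas1g, Isg15, Gbp2, Gbp6, Igtp and Irgm2 were matched only by clusters that the platform annotation assigns to several genes, and no value is given for them. Ifi44 was not matched to a cluster and was not analysed here.

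RNA was taken from the whole skin of C57BL/6 mice and hybridised to 4 Affymetrix mouse arrays. All mice were Tnfrsf1a+/-, carrying 1 functional copy of the gene for the TNF receptor TNFR1. The no K5-Cre group held replicate 1, CflarF/+;Tnfrsf1a+/-, and replicate 3, CflarF/F;Tnfrsf1a+/-, where F is the loxP-flanked allele of Cflar, the gene of the cell death inhibitor cFLIP. The K5-Cre group is replicates 2 and 6, each of genotype CflarF/F;K5-Cre;Tnfrsf1a+/-. K5-Cre is Cre recombinase under the promoter of keratin 5, a keratin of the basal layer of the epidermis, whereas whole skin also holds cells of other lineages. The study asks which genes might stop keratinocytes from dividing and maturing. Its design text names the CflarF/F genotypes only, a comparison obtained here by leaving out no K5-Cre replicate 1. The labels give no age, sex, body site or batch, nor how many animals gave the RNA of each array, so p-values measure the spread between these samples only, which may be technical.

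Interferons are secreted proteins that warn cells of viruses and of damage. Type I interferons act through IFNAR1 and IFNAR2 and type II interferon, IFN-gamma, through IFNGR1 and IFNGR2. Receptor-bound JAK kinases phosphorylate STAT proteins, which with IRF9 form the complex ISGF3 that binds the interferon-stimulated response element in the promoters of antiviral genes. In skin, keratinocytes, dendritic cells and macrophages all make and answer interferons.

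Most measured genes of the list were higher in K5-Cre skin. In limma's moderated test, with p-values adjusted over all genes by the Benjamini-Hochberg method and called under 0.05, 29 of 40 were higher (72.5%), 1 was lower and 10 did not pass. Of all 19938 genes tested, 58.7% were called, 30.8% higher and 27.9% lower. The list was chosen with earlier results of these data known, so these shares describe it and do not test it. The median difference, K5-Cre minus no K5-Cre on the log2 scale, was 0.86 over the 40 genes and 0.11 over all genes. At least 2-fold higher and past the threshold were 16 of 40, against 7.21% of all genes. On 36 of 40 the K5-Cre arrays both lay above both no K5-Cre arrays, and on 2 (Ifit2 and Iigp1) both lay below, where 47.6% and 37.0% of all genes did so. The largest rises were those of Ifitm6, Oas2, Rsad2, Isg20 and Ifitm1. Without no K5-Cre replicate 1, 16 of 40 were called higher (10.9% of all genes) with a median difference of 0.70, and without no K5-Cre replicate 3, 22 of 40 (12.6% of all genes) with a median of 0.95. In those 2 fits the spread came from the K5-Cre pair alone, whose differences had an SD of 0.32 over all genes, against 0.14 in the no K5-Cre pair.

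**Figure D1:**
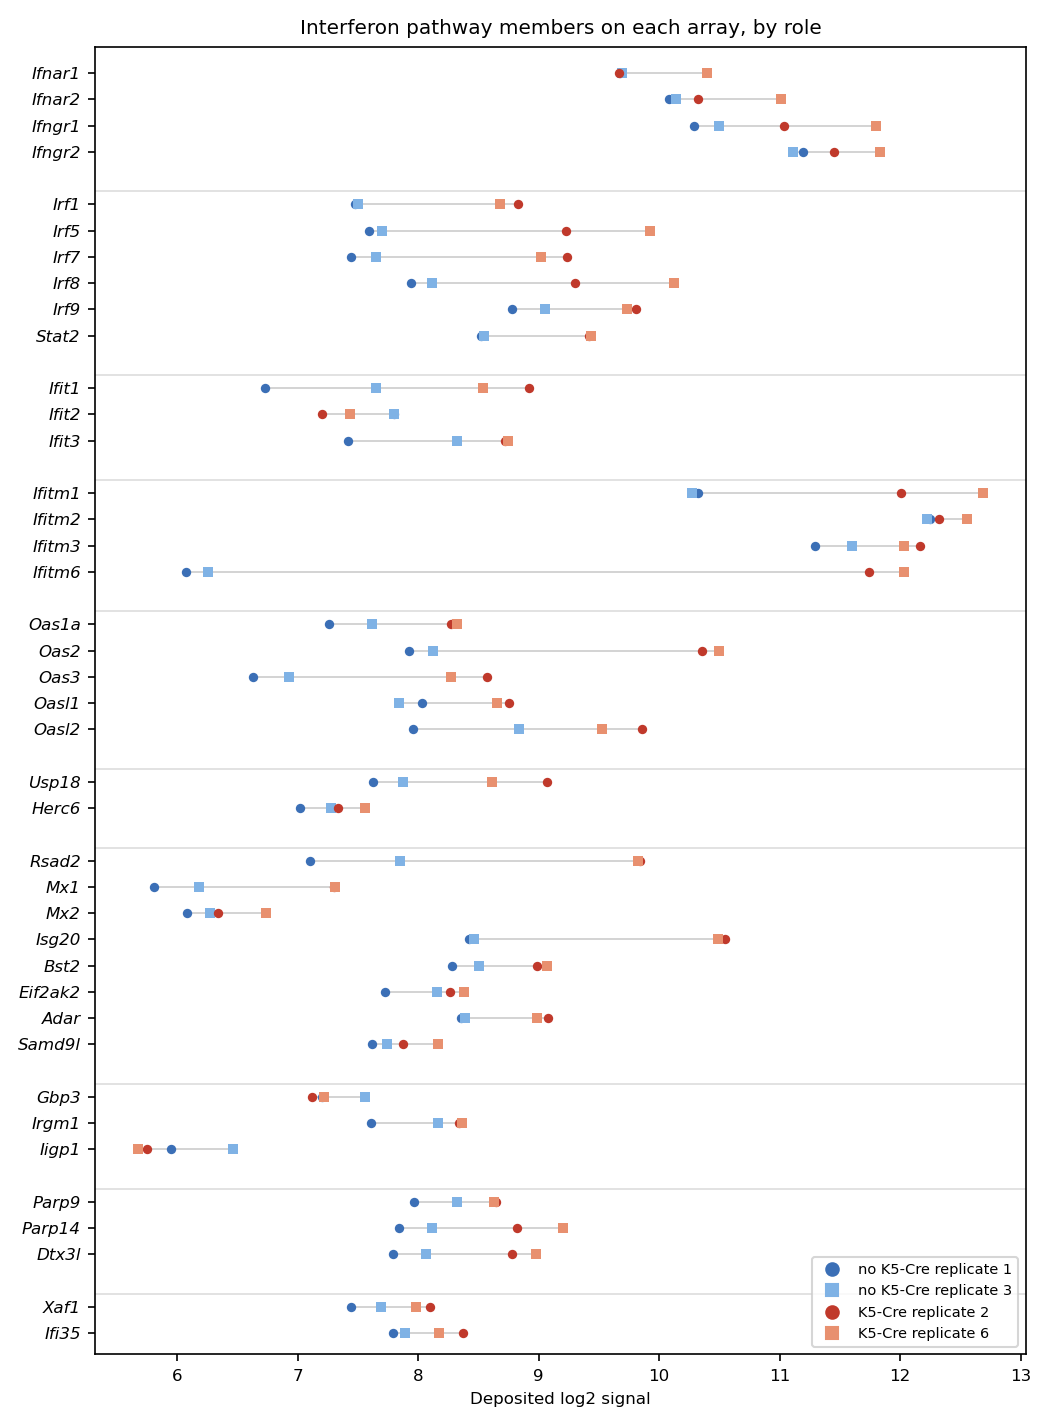
Deposited log2 signal (x axis) of the 40 measured genes (y axis, grouped by role) on each of the 4 arrays, with a grey line from the lowest to the highest array. On 36 genes both K5-Cre points (red and orange) lie to the right of both no K5-Cre points (blue), with the widest gap on Ifitm6.

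The response element was looked for in the promoters of the list, since it is where ISGF3 binds. Windows of 250 bases before the annotated start, from RefSeq on build GRCm38.p6, were at hand for 39 of the 47 genes. The letters GAAANNGAAA on either strand, N being any base, occurred in a window of 15 of 39 (38.5%), against 936 of 27025 genes (3.46%). At least 2 matches in 1 window occurred in 8 of 39 (20.5%), against 57 genes in all (0.211%). Isg15, which has no reading of its own here, had the most, with 3. Windows from 5 role groups, each of the measured gene with the most matches, are printed because they carry these letters. They run 5′ to 3′ on the gene's strand, with matches in capitals. TTTCNNTTTC is the same motif read on the other strand.
Ifit1, chr19:34640639-34640888, plus strand: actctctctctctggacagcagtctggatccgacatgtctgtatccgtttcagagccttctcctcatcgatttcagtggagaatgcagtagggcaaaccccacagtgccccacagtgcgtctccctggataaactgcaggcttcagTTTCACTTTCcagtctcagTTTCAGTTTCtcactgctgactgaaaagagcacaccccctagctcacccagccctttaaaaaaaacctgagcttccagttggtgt
Oas1a, chr5:120907526-120907775, minus strand: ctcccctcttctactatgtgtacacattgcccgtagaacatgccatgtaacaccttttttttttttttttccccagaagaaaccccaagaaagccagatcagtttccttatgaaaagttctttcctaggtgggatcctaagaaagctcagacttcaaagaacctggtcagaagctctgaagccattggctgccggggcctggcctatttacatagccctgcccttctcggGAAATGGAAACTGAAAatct
Bst2, chr8:71537473-71537722, minus strand: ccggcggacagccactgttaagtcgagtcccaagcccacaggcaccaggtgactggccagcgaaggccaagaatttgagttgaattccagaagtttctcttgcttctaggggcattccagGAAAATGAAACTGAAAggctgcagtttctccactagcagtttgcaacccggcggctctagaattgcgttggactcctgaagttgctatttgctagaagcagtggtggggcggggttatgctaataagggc
Irgm1, chr11:48871421-48871670, minus strand: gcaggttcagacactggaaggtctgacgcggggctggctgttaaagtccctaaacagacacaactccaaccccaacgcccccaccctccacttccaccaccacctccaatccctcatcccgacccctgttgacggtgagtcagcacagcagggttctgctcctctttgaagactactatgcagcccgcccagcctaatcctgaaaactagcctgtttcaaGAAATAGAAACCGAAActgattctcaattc
Stat2, chr10:128270248-128270497, plus strand: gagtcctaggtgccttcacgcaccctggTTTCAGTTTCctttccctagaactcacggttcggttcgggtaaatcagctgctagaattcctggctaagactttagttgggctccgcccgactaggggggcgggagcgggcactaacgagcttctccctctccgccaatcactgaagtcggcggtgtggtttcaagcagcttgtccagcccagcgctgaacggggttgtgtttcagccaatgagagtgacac
The 2 matches of Ifit1 are separate and begin 85 and 104 bases before the start. Those of Oas1a, Bst2 and Irgm1 are pairs that overlap by 4 bases, so each run of capitals spans both. The single match of Stat2 begins 222 bases before the start. Of the measured genes, 10 had a match and 7 of these were higher in K5-Cre skin, with a median difference of 0.87. Another 23 had a window with no match and 17 of these were higher, with a median of 0.76. A match is a string of letters and was not tested as a binding site.

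The ligand genes differed by less than 2-fold between the groups. Of 21 interferon genes listed, 16 were measured, and limma called 9 higher and 0 lower (0 lower also at an unadjusted p under 0.05), with a median difference of 0.39. Higher were thus 56.25% of the measured ligands, against 30.8% of all genes. Ifnb1, the interferon-beta gene, read 5.85 and 6.03 in no K5-Cre replicates 1 and 3 and 6.08 and 5.99 in K5-Cre replicates 2 and 6. Its groups overlapped, and the difference was 0.09 ± 0.11 (SE, n = 2 per group, limma adjusted p = 0.470). All 4 readings of Ifnb1 lay under the 25th percentile of their arrays, which limits what this difference can show. Ifng, the IFN-gamma gene, did not pass either (0.20 ± 0.15, adjusted p = 0.287). Ifnz, the limitin gene of the mouse, was higher by 0.68 ± 0.10 (adjusted p = 0.0031), and Ifnk, interferon kappa of keratinocytes, by 0.45 ± 0.12 (adjusted p = 0.0200), though all 4 readings of Ifnk lay under the 25th percentile of their arrays. Most type I genes are near copies of each other, so a probe may read several, and 6 of the 16 lay under the 25th percentile of all clusters on every array. The count of 9 fell to 6 with quantile normalization. It fell further without no K5-Cre replicate 1 or 3, to about the share of all genes called higher in those fits or below it. The median difference was then 0.35 and 0.38.

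All 4 receptor genes had a positive difference, with K5-Cre replicate 6 the highest array for each. Ifngr1, the ligand-binding chain for IFN-gamma, read 10.29 and 10.50 in the no K5-Cre replicates 1 and 3 and 11.04 and 11.80 in K5-Cre replicates 2 and 6. The groups did not overlap, and the rise was 1.03 ± 0.25, or 2.04-fold (adjusted p = 0.0179). Ifngr2, the signalling partner chain, read 11.19, 11.11, 11.45 and 11.83 in the same order. It too was called higher, by 0.49 ± 0.15 (adjusted p = 0.0344). Ifnar2, which binds type I interferon, read 10.08, 10.14, 10.32 and 11.01. Its arrays were in order of group but the difference, 0.56 ± 0.23, did not pass (adjusted p = 0.0801). Ifnar1, its partner, read 9.68, 9.69, 9.67 and 10.40. K5-Cre replicate 2 lay at the no K5-Cre level, and the difference of 0.35 ± 0.24 did not pass (adjusted p = 0.245). Without that high array, K5-Cre replicate 6, the Ifnar1 difference was -0.014. With either no K5-Cre array left out, 0 of the 4 receptors were called in limma, and 1 of 4 had an unadjusted p under 0.05 each time.

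Next to the receptors stand kinases, STATs and further receptor chains. Of 7 genes listed, 6 were measured, and 5 of these were higher, where 30.8% of all genes were. Jak2, the kinase of the IFN-gamma receptor, read 9.32 and 9.40 in no K5-Cre skin and 11.04 and 11.52 in K5-Cre skin. It rose by 1.92 ± 0.17, or 3.78-fold (adjusted p = 0.000552). Tyk2, the kinase on IFNAR1, rose by 0.52 ± 0.15 (adjusted p = 0.0288), whereas Jak1, shared by all interferon receptors, missed the threshold with a difference of 0.11 ± 0.11 (adjusted p = 0.405). Il10rb, a chain of the type III interferon and IL-10 receptors, rose by 1.38 ± 0.22. Ifnlr1, the other type III chain, rose by 0.75 ± 0.10. Stat3, which many cytokines activate, rose by 0.83 ± 0.11. The count was 4 and 3 without no K5-Cre replicates 1 and 3.

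All 6 transcription factor genes of the list were higher in K5-Cre skin, with no overlap of the groups. Of these, 4 rose at least 2-fold. Over all genes, 30.8% were called higher, 47.6% were higher without overlap and 7.21% were called and at least 2-fold higher. Irf5, which acts in macrophages and dendritic cells downstream of Toll-like receptors, read 7.59 and 7.70 in no K5-Cre replicates 1 and 3 and 9.23 and 9.92 in K5-Cre replicates 2 and 6. It rose by 1.93 ± 0.23, or 3.81-fold (adjusted p = 0.00149). Irf8, a lineage factor of monocytes and dendritic cells, read 7.94, 8.11, 9.30 and 10.12. Both K5-Cre arrays were high and replicate 6 was the higher by 0.82; the rise was 1.69 ± 0.27, or 3.22-fold (adjusted p = 0.00399). Irf7, itself interferon-induced and the main driver of interferon-alpha genes, read 7.44, 7.65, 9.23 and 9.02. It rose by 1.58 ± 0.13 (adjusted p = 0.000407), and here K5-Cre replicate 2 was the higher array. Irf1, an early target of IFN-gamma, read 7.48, 7.50, 8.83 and 8.67, and rose by 1.26 ± 0.11 (adjusted p = 0.000411). A further cluster of Irf1 gave 0.46 ± 0.10 (adjusted p = 0.0122). Both clusters thus passed in 1 direction, with a smaller difference on the other one.

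Stat2 and Irf9, both parts of ISGF3, each rose by less than 1 on the log2 scale. Stat2 read 8.52 and 8.55 in no K5-Cre skin and 9.41 and 9.43 in K5-Cre skin. The 2 arrays of a group differed by at most 0.03, and Stat2 was higher by 0.89 ± 0.10 (adjusted p = 0.0012). Irf9 read 8.78, 9.05, 9.80 and 9.73 and was higher by 0.85 ± 0.13 (adjusted p = 0.00366). Without no K5-Cre replicate 1, Irf9 did not pass (adjusted p = 0.0695), while the other 5 factors did. Of the further IRF genes, Irf2, which competes with IRF1 at its sites, rose by 1.07 ± 0.20 (adjusted p = 0.00689). Irf4, a lymphocyte and dendritic cell factor, fell by 0.60 on the log2 scale (SE 0.12, adjusted p = 0.00941). Irf3, which starts interferon-beta transcription, differed by -0.16 and did not pass. Without no K5-Cre replicate 1, Irf2 was not called, and without replicate 3, Irf4 was not.

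The Ifit genes encode tetratricopeptide proteins that bind viral RNA. Ifit1 read 6.73 and 7.65 in no K5-Cre replicates 1 and 3 and 8.92 and 8.54 in K5-Cre replicates 2 and 6. The groups were apart, though the 2 controls differed by 0.92, and the rise was 1.54 ± 0.31, or 2.91-fold (adjusted p = 0.00923). In the authors' deposited table, which places its cluster on mm9 at chr19:34715379-34724499, the absolute fold of Ifit1 against no K5-Cre replicate 1 was 4.19 and 3.32 in K5-Cre replicates 2 and 6 and 1.71 in no K5-Cre replicate 3. Ifit3 read 7.41, 8.32, 8.72 and 8.75. No K5-Cre replicate 3 stood nearer to the K5-Cre arrays than to replicate 1, and the rise of 0.87 ± 0.29 passed narrowly (adjusted p = 0.0443). It did not pass without no K5-Cre replicate 1 (0.41, adjusted p = 0.172) or when only genes above the median of all clusters were tested (adjusted p = 0.0529). Ifit2 was the 1 gene of the list called lower. It read 7.80 and 7.80 in no K5-Cre skin and 7.20 and 7.43 in K5-Cre skin. It fell by 0.48 on the log2 scale (SE 0.11, adjusted p = 0.0153). That call was lost with replicate 1 left out (adjusted p = 0.105) and with replicate 3 left out (0.0984).

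Ifitm proteins sit in membranes and hinder virus entry. Ifitm6, a mouse member of the family, had the largest rise of the list. It read 6.07 and 6.26 in no K5-Cre replicates 1 and 3, at or under the 25th percentile of those arrays (6.23 and 6.26), and 11.74 and 12.03 in K5-Cre replicates 2 and 6. The difference was 5.72 ± 0.14, a 52.7-fold ratio of the deposited values (adjusted p = 2.2e-05). The authors' deposited table gives absolute folds of 39.7 and 46.9 against no K5-Cre replicate 1 for this cluster, at chr7:148201605-148202807 on mm9. Ifitm1, a relative in the same cluster of genes, read 10.32, 10.27, 12.01 and 12.69. It rose by 2.05 ± 0.22, or 4.15-fold (adjusted p = 0.00105), and by 2.19 ± 0.24 on a further cluster. Ifitm3, which acts against influenza virus, rose by 0.65 ± 0.13 (adjusted p = 0.0097), and did not pass once no K5-Cre replicate 1 was left out (adjusted p = 0.121). Ifitm2 had a difference of 0.20 ± 0.11, which missed the threshold (adjusted p = 0.159). Of its 2 further clusters, 1 passed at 0.29 (adjusted p = 0.0453) and 1 did not at 0.25 (adjusted p = 0.161). The 4 genes thus ranged from no called change to the largest rise on the list.

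The Oas genes encode enzymes that make oligoadenylates to switch on RNase L, or inactive relatives. All 5 measured were called higher without overlap, where 30.8% of all genes were called higher and 47.6% were higher without overlap. Oas2 read 7.92 and 8.12 in no K5-Cre replicates 1 and 3 and 10.35 and 10.49 in K5-Cre replicates 2 and 6. Both arrays of each group lay close together, and the rise was 2.40 ± 0.12, or 5.29-fold (adjusted p = 9.6e-05). Oas3 read 6.63, 6.92, 8.57 and 8.27. It rose by 1.64 ± 0.15, or 3.12-fold (adjusted p = 0.000624). Oasl2 rose by 1.29 ± 0.30 (adjusted p = 0.014), with a gap of 0.88 between its control arrays. Oas1a rose by 0.86 ± 0.14 and Oasl1, which blocks translation of Irf7 in mice, by 0.76. Without no K5-Cre replicate 1 Oasl2 was not called (adjusted p = 0.0616), and without replicate 3 Oasl1 was not (adjusted p = 0.0585).

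In the ISG15 system, which attaches a ubiquitin-like protein to targets, Usp18 was called and Herc6 was not. Usp18, which removes ISG15 and dampens IFNAR2 signalling, read 7.62, 7.87, 9.07 and 8.61 in no K5-Cre replicates 1 and 3 and K5-Cre replicates 2 and 6. The groups were apart and the rise was 1.09 ± 0.18, or 2.13-fold (adjusted p = 0.00485), with an adjusted p of 0.0507 without no K5-Cre replicate 1. Herc6, the ISG15 ligase of mice, read 7.02, 7.28, 7.33 and 7.56. Its groups did not overlap, and the difference was 0.30 (adjusted p = 0.104).

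Of the other 8 antiviral effectors, 5 were higher, 0 were lower and all 8 had a positive difference. Of all 19938 genes, 30.8% were higher, 27.9% were lower and 11269 had a positive difference. Rsad2, the gene of viperin, which makes a chain-terminating nucleotide, read 7.10 and 7.85 in no K5-Cre skin and 9.84 and 9.82 in K5-Cre skin. The K5-Cre arrays were nearly equal while the controls differed by 0.75, and the rise was 2.36 ± 0.24, or 5.12-fold (adjusted p = 0.000868). Isg20, an RNA exonuclease, read 8.42, 8.46, 10.54 and 10.49. It had close replicates in both groups and rose by 2.08 ± 0.10, or 4.23-fold (adjusted p = 8.4e-05). Mx1, a GTPase that restricts influenza virus, rose by 1.32 ± 0.14 (adjusted p = 0.001) from control readings under the 25th percentile of their arrays. Adar, an RNA editing enzyme, rose by 0.66 and Bst2, tetherin, by 0.63. Mx2, Eif2ak2 (the kinase PKR) and Samd9l had differences of 0.36, 0.38 and 0.34 that missed the threshold (adjusted p = 0.0942, 0.0871 and 0.0719). Those 3 all passed when the arrays were shifted to 1 median, which raised the count to 8 of 8, while without either control array the count was 3. Over all genes, the median shift raised the number called higher from 6145 to 7479 of 19938. Under an unadjusted p of 0.05 in the main fit, limma had 6 of the 8 effectors higher and 0 lower.

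The interferon-induced GTPases, which attack the vacuoles of intracellular pathogens, were the group in which no gene passed. Limma called 0 of 3 measured genes, and 1 (Iigp1) had an unadjusted p under 0.05, in the lower direction. Iigp1 read 5.94 and 6.46 in no K5-Cre replicates 1 and 3 and 5.75 and 5.67 in K5-Cre replicates 2 and 6. Its K5-Cre readings lay under the 25th percentile of those arrays, and the difference was -0.49 ± 0.18 (adjusted p = 0.0596). Irgm1, a regulator of the other GTPases, read 7.61, 8.17, 8.34 and 8.36. Control replicate 3 lay near the K5-Cre arrays, and the difference of 0.46 did not pass (adjusted p = 0.0821). Gbp3 differed by -0.21 (adjusted p = 0.237) with overlapping groups. With quantile normalization, or with either K5-Cre array left out, Irgm1 was called higher and Iigp1 lower. Without no K5-Cre replicate 1, Iigp1 was called lower (-0.75, adjusted p = 0.0203), and without replicate 3, Irgm1 higher (0.74, adjusted p = 0.0374).

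The 3 ADP-ribosylation genes and the 2 remaining genes were all called higher, where 30.8% of all genes were. Parp14, an ADP-ribosyltransferase, read 7.84, 8.12, 8.82 and 9.20 in no K5-Cre replicates 1 and 3 and K5-Cre replicates 2 and 6. It rose by 1.03 ± 0.17, or 2.04-fold (adjusted p = 0.0047). Dtx3l, a ubiquitin ligase that works with PARP9, read 7.79, 8.06, 8.78 and 8.98, and rose by 0.95 ± 0.14 (adjusted p = 0.00304). Neither gene's groups overlapped, where 47.6% of all genes were higher without overlap. Parp9 rose by 0.50 (adjusted p = 0.0305). Xaf1, which binds the caspase inhibitor XIAP, read 7.44, 7.69, 8.09 and 7.98 and rose by 0.47 (adjusted p = 0.022). Ifi35, a leucine zipper protein, read 7.79, 7.89, 8.37 and 8.17 and rose by 0.43 (adjusted p = 0.0225). With no K5-Cre replicate 1 left out neither Xaf1 nor Ifi35 passed (adjusted p = 0.1997 and 0.194), nor did they with replicate 3 left out (0.0588 and 0.116). The ADP-ribosylation count fell from 3 to 1 (Dtx3l) without replicate 1 and to 2 without replicate 3.

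**Figure D2:**
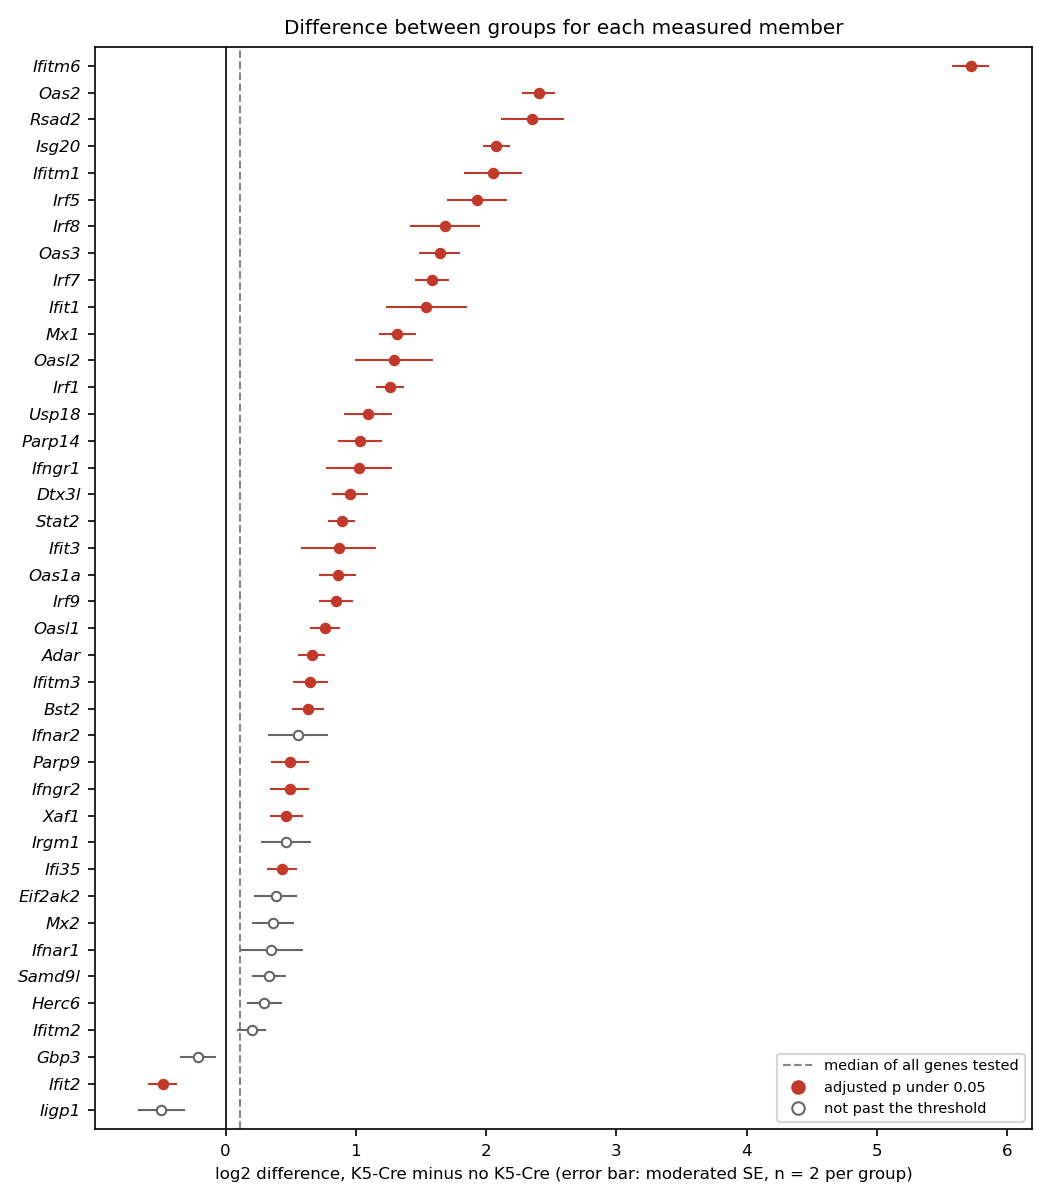
Log2 difference between groups, K5-Cre minus no K5-Cre (x axis), of each of the 40 measured genes (y axis, sorted), with bars of 1 moderated SE and n = 2 arrays per group. Filled points passed an adjusted p of 0.05, and 37 of 40 lie above 0, and the dashed line marks the median of all genes at 0.11.

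The 2 control arrays were not alike for these genes. No K5-Cre replicate 3, CflarF/F, read above replicate 1, CflarF/+, on 36 of 40 genes (90.0%), against 50.2% of all genes, and the median gap was 0.22, against 0.00 over all genes. A gap over 0.2 was found on 23 of 40 (57.5%), against 7.87% of all genes. The widest gaps were on Ifit1 (0.92), Ifit3 (0.91), Oasl2 (0.88), Rsad2 (0.75), Irgm1 (0.55) and Iigp1 (0.52). Genes with a GAAANNGAAA match in the promoter window had a median gap of 0.36 (9 of 10 higher in replicate 3) and those with a window and no match 0.13 (20 of 23 higher). With 1 array of each genotype, this gap has no replicate check, and genotype and array cannot be told apart. The authors' deposited table holds 8 of these genes, with the absolute fold of replicate 3 against replicate 1 upward for each. It was 1.71 for Ifit1, 1.69 for Rsad2 and 1.27 for Oas2. The fold was smaller for Isg20 (1.12), Irf5 (1.11), Irf8 (1.06), Ifitm1 (1.05) and Ifitm6 (1.04). That table was kept by fold against replicate 1, so these folds are no separate check of the gap.

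The 2 K5-Cre arrays had the same genotype and differed in another way. Replicate 6 read above replicate 2 on 24 of 40 genes, against 51.8% of all genes. It was the higher on 4 of 4 receptors, by a median of 0.71, and on Irf8 (0.82), Irf5 (0.70) and Ifitm1 (0.68). It was the lower on Usp18 (-0.46), Ifit1 (-0.38), Oas3 (-0.30) and Irf7 (-0.21). Listed macrophage and monocyte markers were also higher in replicate 6, on 10 of 11 genes with a median of 0.72, while the neutrophil markers differed by a median of 0.11. Other cell types differed between these arrays too. Replicate 6 was the higher on 8 of 8 skeletal muscle markers (median 0.46), 0 of 8 keratinocyte markers (-0.18) and 2 of 8 adipocyte markers (-0.22). The remaining marker lists had medians from -0.10 to 0.08. The part of these cells in the receptor and Irf values was not tested.

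**Figure D3:**
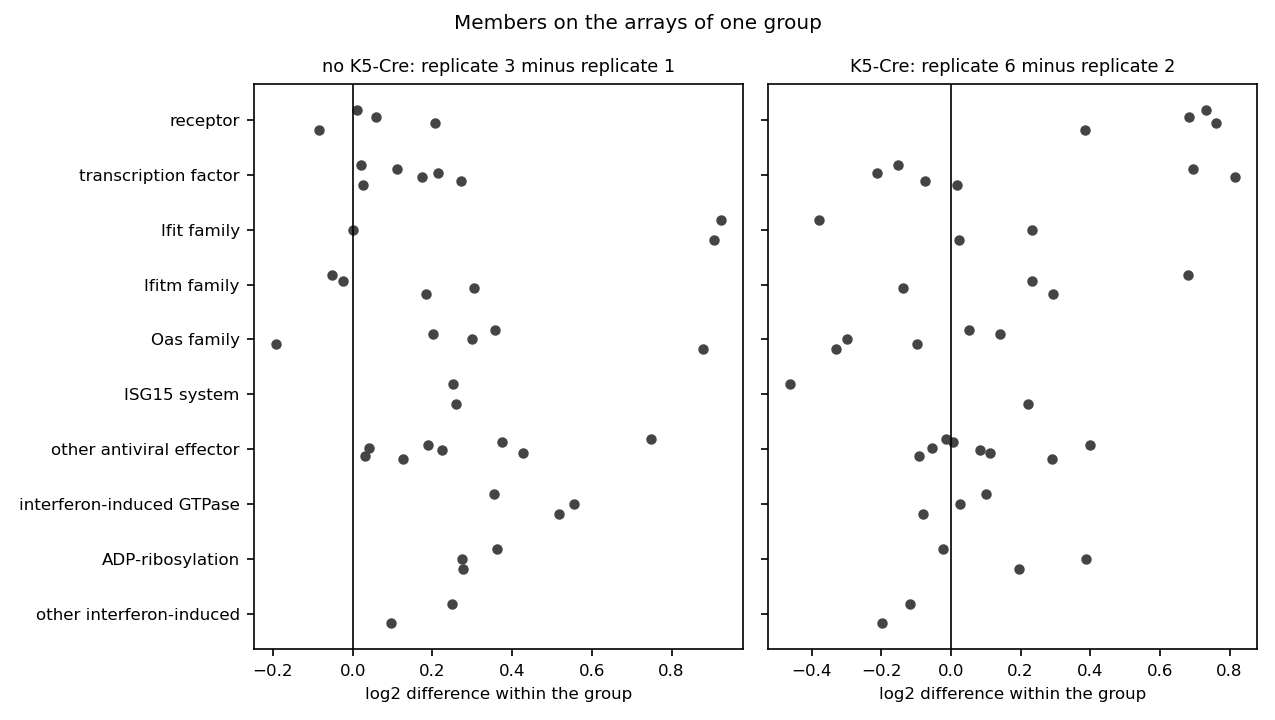
Log2 difference between the 2 arrays of a group (x axis) for each measured gene, by role (y axis), in no K5-Cre skin (left, replicate 3 minus replicate 1) and K5-Cre skin (right, replicate 6 minus replicate 2). Most points on the left lie right of 0, while on the right the 4 receptors lie right of 0 and the Oas genes on both sides.

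Of the inhibitors of the pathway, 5 of 9 measured were higher and 2 lower, where 30.8% and 27.9% of all genes were. Socs3, which blocks JAK kinases at cytokine receptors, read 8.07 and 7.94 in no K5-Cre skin and 10.63 and 10.60 in K5-Cre skin. It rose by 2.61 ± 0.11, or 6.10-fold (adjusted p = 5.1e-05). Socs1, the main brake on IFN-gamma signalling, rose by 0.84 ± 0.11 (adjusted p = 0.00227). The phosphatase genes Ptpn6 (SHP-1, of blood cells) and Ptpn1 rose by 1.65 ± 0.17 and 1.61 ± 0.12. Ptpn11 (SHP-2) and Irf2bp1 fell by 0.32 and 0.39 on the log2 scale, and neither was called without either control array. Irf2bp2 rose by 0.60.

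Further interferon-induced genes, a list of 60 beside the 47, were also mostly higher. Of 55 measured, 35 were higher and 7 lower, where 30.8% and 27.9% of all genes were. The median difference was 0.68. The largest differences were those of Slfn1 (4.17) and Slfn2 (2.55) of the Schlafen family, Ms4a4c (2.96), the HIN-200 gene Ifi205 (2.30) and Ube2l6 (2.20), the enzyme that passes ISG15 to its ligase. Some further genes were picked after their values were seen. Of the guanylate-binding protein genes with a reading, Gbp4, Gbp9, Gbp11 and Gbp8 fell by 1.33, 0.91, 0.66 and 0.41 on the log2 scale. The K5-Cre readings of Gbp4, Gbp11 and Gbp8 lay under the 25th percentile of their arrays. A further cluster is assigned to these 4 genes together with Gbp6 and Gbp10, and whether a probe reads several of them was not tested. Gbp5 rose by 0.75 (limma adjusted p = 0.00591) from readings under the 25th percentile on all 4 arrays. Gbp7 missed the threshold at 0.26 (limma adjusted p = 0.194). Cxcl10, a T cell chemokine that both interferon types induce, rose by 1.62 ± 0.13. Cxcl9, which answers mainly to IFN-gamma, missed the threshold at 0.23 (limma adjusted p = 0.167). Which interferon type, if any, lay behind either value was not tested. Over all pathway lists together, 64 of 103 measured genes were higher and 12 lower. Without no K5-Cre replicate 1 these counts were 41 and 6, and without replicate 3 they were 43 and 2, of which 5 and 2 lower genes were on the list of 60.

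**Figure D4:**
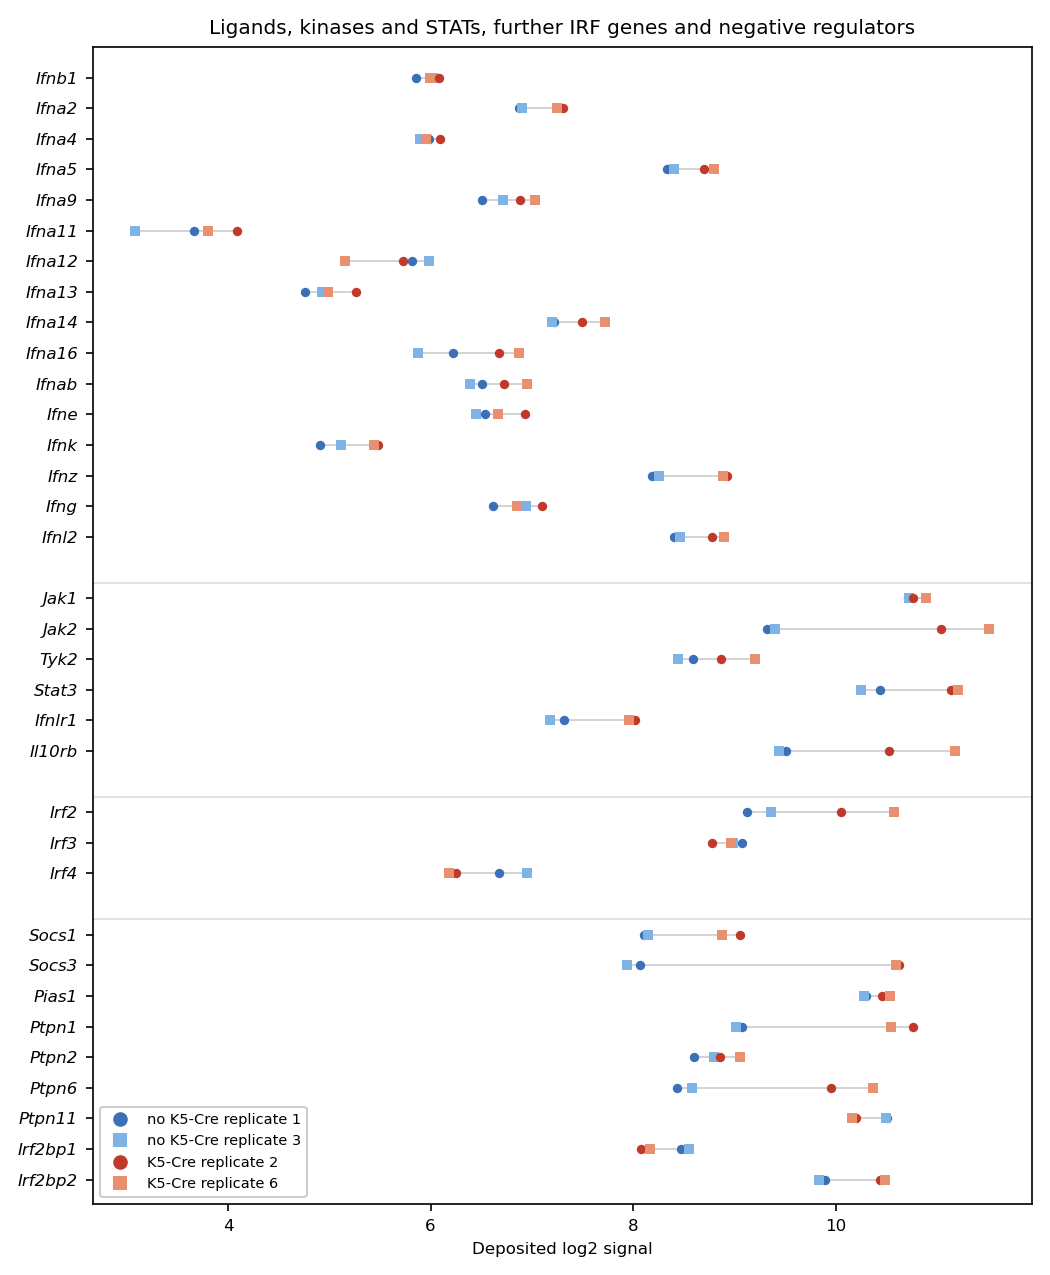
Deposited log2 signal (x axis) of the listed pathway genes on each of the 4 arrays, with a grey line from the lowest to the highest array. The y axis holds ligands, then kinases, STATs and further receptor chains, then further IRF genes and negative regulators. The ligand points of the groups lie close together on most genes, while Jak2, Il10rb, Socs3, Ptpn1 and Ptpn6 show wide gaps, with the K5-Cre arrays (red and orange) to the right.

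Marker genes of other cell types differed between the groups too. Over all genes tested, 30.8% were called higher and 27.9% lower. In whole skin, fewer or more cells of a type and less or more RNA per cell cannot be told apart. All 11 measured neutrophil markers were higher in K5-Cre skin, with a median difference of 4.79 and a mean list level of 6.38 to 6.50 in no K5-Cre skin and 11.04 to 11.19 in K5-Cre skin. All 11 macrophage and monocyte markers were higher too (median 2.56, from 8.38 to 8.51 in no K5-Cre skin and from 10.68 to 11.33 in K5-Cre skin). Of plasmacytoid dendritic cell markers, a list that shares Bst2, 4 of 7 were higher and 1 lower, with list levels of 7.83 to 7.84 and 8.04 to 8.22. Of T and NK cell markers 8 of 10 were higher (levels of 5.98 to 6.05 and 6.55 to 6.56), of dendritic and Langerhans cell markers 4 of 8 and of B cell markers 4 of 5. Without either no K5-Cre array each of these last 4 lists had 1 to 3 higher markers. All 8 fibroblast and all 8 muscle markers were lower, as were 6 of 8 each for endothelium and adipocytes. Of keratinocyte markers, 4 of 8 were higher and 0 lower (also 0 at an unadjusted p under 0.05 in limma). The part of these cells in the differences of the interferon genes was not tested. All 3 Cflar clusters were higher in K5-Cre skin (0.83, 0.83 and 0.46), so whole-skin Cflar readings do not check the labels, and Tnfrsf1a was higher by 1.17.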

How the data were processed

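Biotin-labelled material from total skin RNA was put on 4 Affymetrix arrays, per the labels' protocols. The series table deposited by the authors holds log2 signals of 35557 transcript clusters, taken as they stand. Their normalization is not given in the sources used. The medians of the no K5-Cre arrays, replicates 1 and 3, were 7.60 and 7.61 and those of the K5-Cre arrays, 2 and 6, were 7.53 and 7.55. A second table deposited by the authors holds 1396 clusters with a linear signal intensity per array and the ratio of each array to no K5-Cre replicate 1 as a fold, kept at 4-fold or more on at least 1 array and above the 20th percentile, on mm9, per the file headers. Its signals differ from the series table by a median of 0.22 on the log2 scale (largest 2.47), so it was used only for its own folds and positions. Columns of samples that were not used number 0.

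Of all clusters, 21789 carry 1 gene symbol, 1621 several and 12147 none in the platform annotation, and 21698 of the first kind were updated through RefSeq. Only clusters with 1 symbol were used, with the highest-mean cluster per gene, which gave 19938 genes; no filter on low values was set, so that every measured gene of the list was tested (33 of 40 had a mean above 7.61, the median of all clusters). The test between the groups of 2 arrays was that of limma 3.58.1 under R 4.3.3 (lmFit, eBayes with trend). It was two-sided, and p-values were adjusted by the Benjamini-Hochberg method across all genes. Differences are K5-Cre minus no K5-Cre with moderated SE (median 0.12), and the number of arrays limits their precision. An exact permutation test of 2 against 2 cannot go under 0.333, so each p rests on the variance model. The script was tested on simulated data.

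The 47 genes, their roles and the other lists were chosen with earlier results of these data known. All receptors and transcription factors, and the 2 largest absolute differences of each other role group, are given on every array, with any gene called lower. From the sensor list and the list of further interferon-induced genes the 5 largest called differences were named; for promoters, the window of the measured gene with the most matches per role group (ties by the larger difference), at most 5. Other settings tried were a low-signal filter, arrays shifted to 1 median, quantile normalization, no trend, the mean of a gene's clusters, each array left out and, added after seeing the data, each further cluster on its own.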

Additional observations from a re-analysis of the deposited data

How the results depend on the processing

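No paired analysis was possible because the labels name no pairs of arrays across the groups. Leaving out each array in turn, the genes called ranged from 5102 to 14363 over all (2178 to 7567 higher, 2924 to 6796 lower), from 17 to 39 among the 40 genes of the list (16 to 37 higher, 0 to 2 lower), with a median difference from 0.70 to 0.95, and from 45 to 90 among the other pathway genes (41 to 76 higher, 2 to 14 lower). The lowest counts came without a no K5-Cre array and the highest without a K5-Cre array. With 1 array left in a group, that array is assumed to vary like the other group. Restricting to genes with a mean above the median of all clusters gave 7200 called (2836 higher) and 5 other pathway genes lower, and fewer genes were then tested. Of the list, 33 genes were tested and 0 were lower (also 0 at an unadjusted p under 0.05 in limma). That 0 was fixed beforehand, since the filter left out Ifit2, Gbp3 and Iigp1, the genes of the list with a negative difference. Quantile normalization gave 2 of the list lower. Ifnar1 ranged from -0.014 without K5-Cre replicate 6, a change of sign, to 0.72 without replicate 2. The sign of the other 39 genes was the same in every planned setting, and 15 passed in every planned setting in which they were tested. Of the 30 calls on the list, none was lost under the median shift, quantile normalization, no trend or the mean of clusters, 14 were lost without no K5-Cre replicate 1, 9 without no K5-Cre replicate 3 and 1 (Ifit3) under the filter. The filter also left the called genes Ifit2, Oas3 and Mx1 untested, so their calls could be neither kept nor lost there. Readings near the 25th percentile of an array, such as those of Iigp1, Mx1 and Ifitm6 in 1 group, limit what a fold there can show.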

Other observations

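Genes that sense nucleic acids and lead to interferon production were also measured. Of 14 measured sensor genes and their adaptors, 9 were higher in K5-Cre skin and 2 lower, where 30.8% and 27.9% of all genes were. Tlr7, the endosomal sensor of single-stranded RNA, read 6.45 and 6.78 in no K5-Cre replicates 1 and 3 and 8.57 and 9.56 in K5-Cre replicates 2 and 6, a rise of 2.46 ± 0.32 (limma adjusted p = 0.00207). Zbp1, a Z-nucleic acid sensor that can start necroptosis, rose by 1.94 ± 0.13 (adjusted p = 0.000203) and read 7.38, 7.47, 9.51 and 9.23. The groups of both genes were far apart, though K5-Cre replicate 6 was the higher array for Tlr7 and replicate 2 for Zbp1. Myd88, the adaptor of most Toll-like receptors, rose by 1.90 ± 0.10, Tlr9, a sensor of DNA, by 1.88 ± 0.26 and Sting1, the adaptor of cytosolic DNA sensing, by 1.63 ± 0.22. Chosen after the values were seen, the 2 lower genes were Tlr3, a sensor of double-stranded RNA, which fell by 0.61 on the log2 scale (adjusted p = 0.0111), and Mavs, the adaptor of RIG-I-like receptors, which fell by 0.34 (adjusted p = 0.0399). Without either no K5-Cre array, 7 of the 14 were called higher and 0 lower in limma, with 1 lower at an unadjusted p under 0.05.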
